A study of Mus musculus with 6 samples.

Results

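Aortic RNA levels of 8 genes of ADAMTS proteases and of 2 genes of the proteoglycans that this family cuts were examined in Apoe-/- mice after bone marrow transfer. The 10 genes (Adamts1, Adamts4, Adamts5, Adamts8, Adamts9, Adamts15, Adamts2, Adamts12, Vcan and Acan) were taken by symbol from the 18749 gene rows of the count files, and all 10 had a row. One group, called Sept2C111A recipients here, consisted of Apoe-/- mice given Apoe-/-Sept2C111A marrow. The other, called Apoe recipients, consisted of Apoe-/- mice given Apoe-/- marrow. All mice were infused with angiotensin II for 28 days, all lacked apolipoprotein E in recipient and marrow alike, and each group held 3 libraries of aortic RNA. The labels do not say whether a library holds 1 aorta or several. In Sept2C111A recipients only the cells that stem from the donor marrow carry the altered septin-2 (its name denotes alanine in place of a cysteine), while the resident cells of the wall keep the recipient's own septin-2. Ages, strain background, the source of the altered allele and the extent to which donor cells replaced the blood are not stated in the labels. The series title links the work to S-nitrosylated septin-2 of macrophages in aneurysm formation, so the comparison asks how aortic transcripts differ when marrow-derived cells carry the altered protein.

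ADAMTS proteins are secreted zinc metalloproteinases with thrombospondin-type repeats that anchor them in the matrix. Several of them cut the hyalectans, large proteoglycans that bind hyaluronan and fill the space between elastic lamellae, of which versican (Vcan) is the main one in arteries and aggrecan (Acan) the main one in cartilage. Hyalectan cleavage is known from thoracic and abdominal aortic disease, where retained or fragmented proteoglycan accompanies damage to the media. Adamts2 and Adamts12 have other main substrates: Adamts2 removes the amino-terminal propeptide of fibrillar procollagens, and Adamts12 cuts cartilage oligomeric matrix protein.

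All 8 protease genes encode a zinc-binding site. The coding sequence around it is shown here so that the members can be compared letter by letter. Each window holds 16 codons (48 bases, 5′ to 3′ on the coding strand) of the longest coding transcript in GENCODE vM21 (mm10), with the codons of the 3 zinc-binding histidines and of the catalytic glutamate in capitals. The coordinates enclose an intron in every case.
Adamts1 (chr16:85799182-85799551, minus strand): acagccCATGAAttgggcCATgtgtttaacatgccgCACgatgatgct
Adamts4 (chr1:171253204-171253924, plus strand): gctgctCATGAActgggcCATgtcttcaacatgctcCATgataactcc
Adamts5 (chr16:85878006-85887832, minus strand): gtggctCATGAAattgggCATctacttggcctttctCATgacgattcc
Adamts8 (chr9:30952715-30953387, plus strand): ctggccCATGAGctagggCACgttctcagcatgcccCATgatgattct
Adamts9 (chr6:92905276-92908499, minus strand): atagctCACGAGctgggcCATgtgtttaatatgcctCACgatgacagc
Adamts15 (chr9:30911246-30911696, minus strand): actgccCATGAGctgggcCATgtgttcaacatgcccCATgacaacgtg
Adamts2 (chr11:50775397-50776143, plus strand): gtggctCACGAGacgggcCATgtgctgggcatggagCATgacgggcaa
Adamts12 (chr15:11241523-11255573, plus strand): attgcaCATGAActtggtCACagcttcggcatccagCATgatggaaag
Outside the Adamts4 window itself, the windows shared from 27 (Adamts2) to 39 (Adamts15) of their 48 bases with that of Adamts4. The exon junction lay after base 16 of the window in 5 genes (Adamts1, Adamts4, Adamts5, Adamts8 and Adamts15) and after base 23 in the other 3 (Adamts9, Adamts2 and Adamts12).

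The classical bonds that hyalectan-cleaving members cut in versican and aggrecan are also well defined, between a glutamate and an alanine. The 30 bases that encode the classical site of each proteoglycan are shown with the glutamate and alanine codons in capitals.
Vcan (chr13:89693209-89693238, minus strand, codons 1396 to 1405): gacccggaagctgcaGAAGCTaggcgtggc
Acan (chr7:79091046-79091075, plus strand, codons 387 to 396): aatgtcacagagggaGAGGCCctgggcagc
The peptide around each site occurred once in the protein of the longest coding transcript, and each window lay within 1 exon. Counts are given per gene, so versican transcripts that hold the exon with this site and splice forms that skip it are summed.

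In the genome the protease genes are partly clustered. Adamts1 and Adamts5 lie 53.1 kb apart on chromosome 16, both on the minus strand, and Adamts15 and Adamts8 lie 20.1 kb apart on chromosome 9, on opposite strands. The remaining members are Adamts4 (chr1:171250421-171260637), Adamts9 (chr6:92772699-92943492), Adamts2 (chr11:50602084-50807573), Adamts12 (chr15:11064790-11349231), Vcan (chr13:89655312-89742509) and Acan (chr7:79053483-79115099).

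Library totals ran from 17082719 to 20494928 expected counts, and no member had fewer than 119 counts in any library, so for the 10 members the spread between libraries and not counting error limits the values. Genes of other lists printed below 1 CPM rest on few counts. Gene counts do not show a point change, so the labels' Sept2C111A genotype was not checked here. The labels do not say how mice, dissections or sequencing runs were batched. Apoe libraries 1 and 3 stood apart in markers of cell types. Smooth muscle markers (Myh11, Acta2, Cnn1, Tagln, Smtn and Des, all detected everywhere) summed to 15071 to 22744 CPM (counts scaled to the TMM-adjusted library size, the usual depth-corrected unit) in Sept2C111A recipients and to 16561, 17748 and 5710 CPM in Apoe libraries 1, 2 and 3. Neutrophil markers (6 genes) summed to 15.4 to 28.3 CPM in Sept2C111A recipients and to 2904, 87.7 and 327 CPM in Apoe libraries 1, 2 and 3, and one of them, Ly6g, was at 0 in all Sept2C111A recipients and in Apoe library 2. In whole tissue, fewer cells of a type and less RNA per cell cannot be told apart.

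Among the 10 genes, Adamts4 showed the clearest difference, at 19.6 ± 5.54 CPM in Sept2C111A recipients and 82.7 ± 33.3 CPM in Apoe recipients (SD, n = 3 each), and versican the next clearest, at 121 ± 49.7 CPM in Sept2C111A recipients and 242 ± 48.6 CPM in Apoe recipients. The other 4 hyalectan-cleaving proteases expressed at steady levels, Adamts1, Adamts5, Adamts9 and Adamts15, differed by less than 1.5-fold between group means. Aggrecan, Adamts12 and Adamts8 differed between the groups mostly through a single library, Apoe library 3. Of the 10 genes, 7 had a log2 fold change (Sept2C111A over Apoe recipients) below 0 and 3 above 0, with a median of -0.28 beside 0.00 over all 14466 genes tested, of which 49.9% were below 0. Adamts4, Adamts12, Acan and Vcan, 4 of the 10, were lower by at least 2-fold in Sept2C111A recipients, beside 7.7% of all genes. Vcan was at that limit, at -1.001 by edgeR and -0.997 by DESeq2. Without Apoe library 3, Adamts12 was at -0.18 and Acan at -0.27 by edgeR. Adamts4 stayed between -2.36 and -1.81 by edgeR with each library left out in turn. The 10 genes were chosen with earlier results of these data known.

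No member passed edgeR's quasi-likelihood test with Benjamini-Hochberg adjustment over all genes (threshold 0.05), and neither did any other gene (0.0% of 14466). Adamts4, Vcan and Adamts9, 3 of the 10 members, had an unadjusted edgeR p under 0.05, all lower in Sept2C111A recipients, beside 15.0% of all genes and 8.83% in that direction. DESeq2, run as another test, called 1 member, Adamts4, beside 3.87% of the genes it tested (2.89% lower and 0.985% higher). The limma-voom fit called none, with 3 members at an unadjusted p under 0.05. All 3 Sept2C111A libraries lay below all 3 Apoe libraries for 2 members, Adamts4 and Vcan, beside 23.1% of all genes without overlap in either direction and 11.9% in that direction. For separation in either direction, the members' share was thus close to that of all genes. In the lower direction alone it was above the 11.9% of all genes, but it rests on only 2 members.

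**Figure D1:**
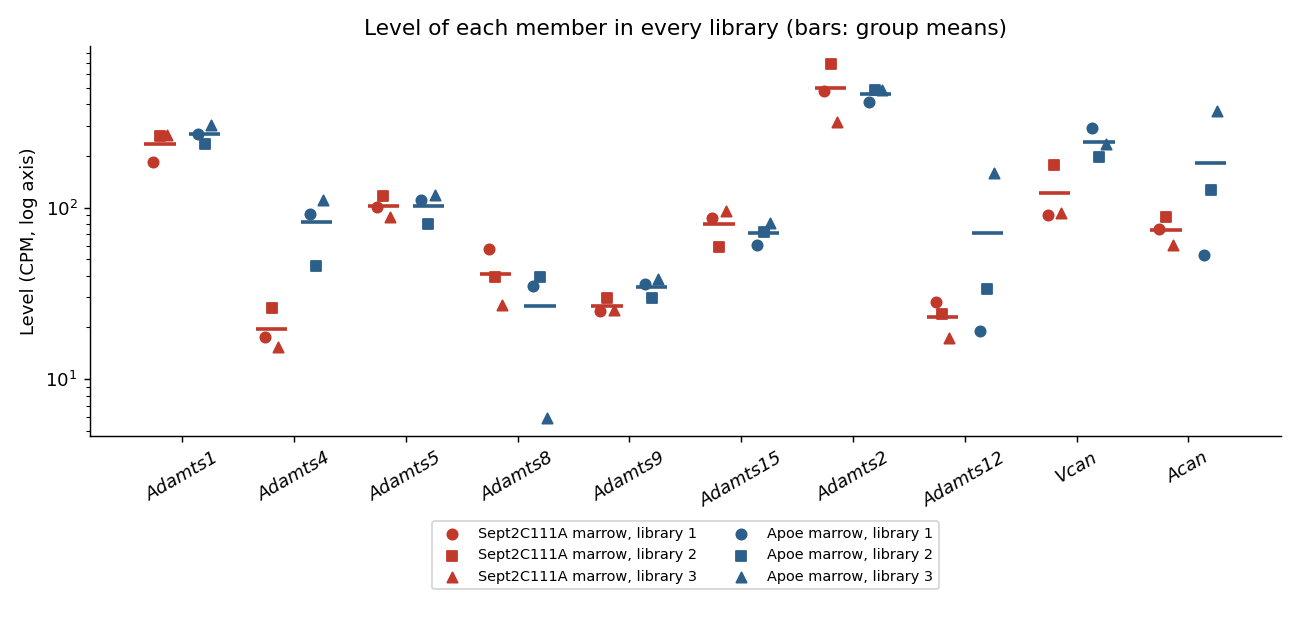
Level of each of the 10 genes in every library, in CPM on a log axis, with Sept2C111A recipients in red left of Apoe recipients in blue and group means as bars. The groups are separate for Adamts4 and Vcan, and Apoe library 3 (blue triangle) is the highest for Adamts12 and Acan and the lowest for Adamts8.

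Adamts4, the aggrecanase named first for its activity on cartilage and also able to cut versican, was at 17.7, 25.9 and 15.3 CPM in the 3 Sept2C111A libraries and at 91.3, 45.9 and 111 CPM in the 3 Apoe libraries. Every Sept2C111A library was thus below every Apoe library, and the lowest Apoe library was 1.78 times the highest Sept2C111A library. For Adamts4 the log2 fold change was -2.08 (SE 0.37, 95% interval -2.97 to -1.18), a 4.22-fold lower level. Its edgeR adjusted p was 0.316 (unadjusted 0.00116, place 28 by p among 14466 genes), while its DESeq2 adjusted p was 9.46e-05. With each library left out in turn, DESeq2 called Adamts4 in 6 of 6 fits (adjusted p from 2.08e-10 to 0.0109) and edgeR in none (adjusted p from 0.0814 to 0.683), and the log2 fold change by edgeR stayed between -2.36 and -1.81. No gene had a smaller edgeR adjusted p than 0.316.

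Marker sums of several cell types are given beside Adamts4, and not all went in its direction. Adamts4 was highest in Apoe library 3, while the neutrophil sum was highest in Apoe library 1. Macrophage markers (Cd68, Adgre1, Csf1r, Mrc1, Cd163 and Itgam, all detected in every library) summed to 549.6 to 709.6 CPM in Sept2C111A recipients and to 707.7 to 1526 CPM in Apoe recipients, with 4 of 6 members at a log2 fold change below 0. The macrophage sum was highest in Apoe library 1, where most of it was Itgam, an integrin gene of macrophages and neutrophils alike. Itgam was at 985, 78.1 and 126 CPM in Apoe libraries 1, 2 and 3. Cd68 and Csf1r were highest in Apoe library 3, as Adamts4 was, while Adgre1, Mrc1 and Cd163 were not. Cd68 was at 51.3 to 88.8 CPM in Sept2C111A recipients and at 94.9 to 183 CPM in Apoe recipients, without overlap. Itgam did not overlap either, but Adgre1, Csf1r, Mrc1 and Cd163 did. Neutrophil markers, with the sums given above, had all 5 tested members below 0. Cd79a, a B cell marker, was at 0.389 to 1.89 CPM in Sept2C111A recipients and at 2.84 to 9.54 CPM in Apoe recipients, without overlap. Erythroid markers had 5 of 5 below 0 and overlapped, at 202 to 708 CPM in Sept2C111A recipients and 70.6 to 1683 CPM in Apoe recipients. Adipocyte markers had 5 of 5 above 0 and overlapped, at 435 to 1653 CPM in Sept2C111A recipients and 102 to 632 CPM in Apoe recipients. Adventitial fibroblast markers had 6 of 6 above 0, at 2100 to 2572 CPM in Sept2C111A recipients and 873 to 1462 CPM in Apoe recipients. Without Apoe library 1, which had the highest neutrophil sum, Adamts4 had a log2 fold change of -1.99. Neutrophil sums in Apoe libraries 2 and 3, at 87.7 and 327 CPM, were still above the 15.4 to 28.3 CPM of Sept2C111A recipients. That fit therefore cannot show the part of neutrophils. The part of these cell types in the difference was not tested.

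**Figure D2:**
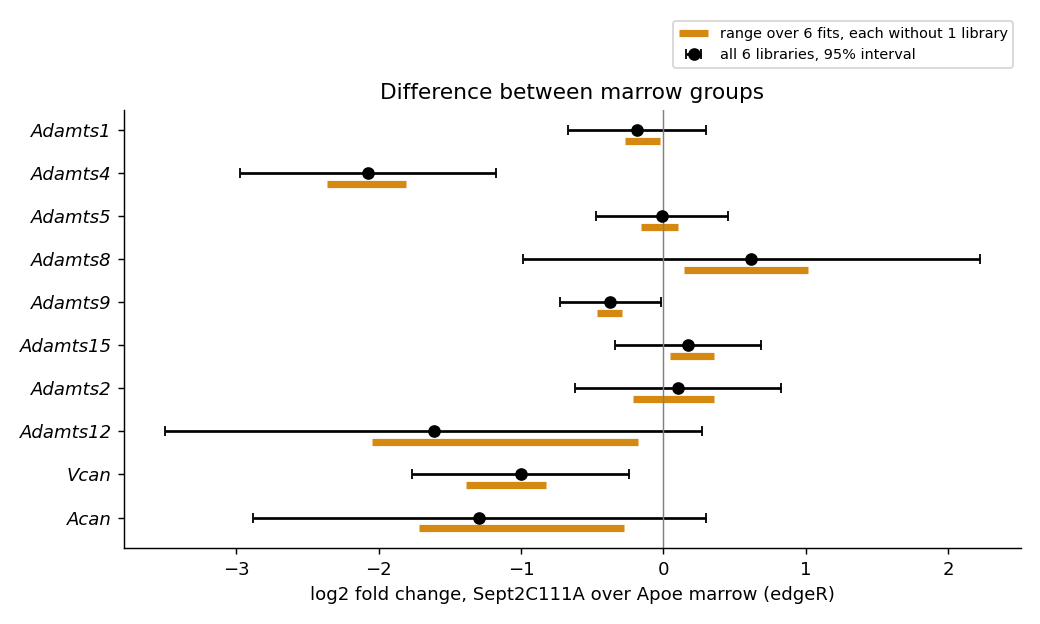
Log2 fold change of each gene, Sept2C111A over Apoe recipients, from edgeR with its 95% interval (black) and the range over 6 fits that each leave out 1 library (orange). The intervals of Adamts4, Adamts9 and Vcan, unadjusted for the number of genes, lie below 0, and the orange ranges of Adamts12, Acan and Adamts8 reach close to 0.

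Adamts1, a hyalectan-cleaving protease also known as an inhibitor of vessel growth, was at 184, 262 and 264 CPM in Sept2C111A recipients and at 268, 234 and 304 CPM in Apoe recipients. The groups overlapped, and the log2 fold change was -0.18 (SE 0.20, edgeR adjusted p = 0.654), with a 95% interval from -0.67 to 0.30. Adamts5, the main aggrecanase of mouse cartilage, was at 101, 117 and 87.8 CPM in Sept2C111A recipients and at 110.4, 79.9 and 118 CPM in Apoe recipients. Its log2 fold change was -0.01 (SE 0.19), with an interval from -0.48 to 0.45. Both groups covered nearly the same range, and the sign of this small difference changed when single libraries were left out.

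Adamts9, a protease of versican and aggrecan with the longest coding sequence of the 8, was at 25.0, 29.8 and 25.1 CPM in Sept2C111A recipients and at 35.7, 29.7 and 38.1 CPM in Apoe recipients. The groups touched, since Sept2C111A library 2 was just above Apoe library 2. The log2 fold change was -0.37 (SE 0.15, edgeR adjusted p = 0.329, DESeq2 adjusted p = 0.262). Adamts15, another protease of versican and aggrecan, was at 87.3, 59.0 and 95.2 CPM in Sept2C111A recipients and at 60.8, 72.2 and 80.9 CPM in Apoe recipients. The lowest single library was a Sept2C111A library and so was the highest, and the log2 fold change was 0.17 (SE 0.21, edgeR adjusted p = 0.687).

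Adamts8, a member first described as an inhibitor of endothelial growth and a weak aggrecanase, was at 57.2, 39.1 and 26.9 CPM in Sept2C111A recipients and at 34.9, 39.5 and 5.88 CPM in Apoe recipients. Apoe library 3 alone was far below the other 5 libraries. With all libraries the log2 fold change of Adamts8 was 0.62 (SE 0.66) at an edgeR adjusted p of 0.646, and without Apoe library 3 it was 0.14. In that library its genomic neighbour Adamts15, at 80.9 CPM, was the highest of its group. Smooth muscle markers were lowest in the same library, at 5710 CPM, and their part in the Adamts8 value was not tested.

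Summed per kilobase of exon over the 6 hyalectan-cleaving genes, the level was 76.6 ± 5.81 in Sept2C111A recipients and 92.4 ± 12.5 in Apoe recipients (CPM per kb, SD, n = 3 each), and the libraries overlapped, with a highest Sept2C111A value of 81.7 and a lowest Apoe value of 78.6. Adamts1 made up most of this sum in both groups, at 57.9% ± 7.60 in Sept2C111A recipients and 54.9% ± 1.80 in Apoe recipients. Adamts4 made up 5.30% ± 1.25 in Sept2C111A recipients and 18.1% ± 5.34 in Apoe recipients. Without Adamts4 the sum was 72.5 ± 5.19 CPM per kb in Sept2C111A recipients and 75.2 ± 5.56 in Apoe recipients. The between-group gap in the sum was therefore mostly that of Adamts4.

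**Figure D3:**
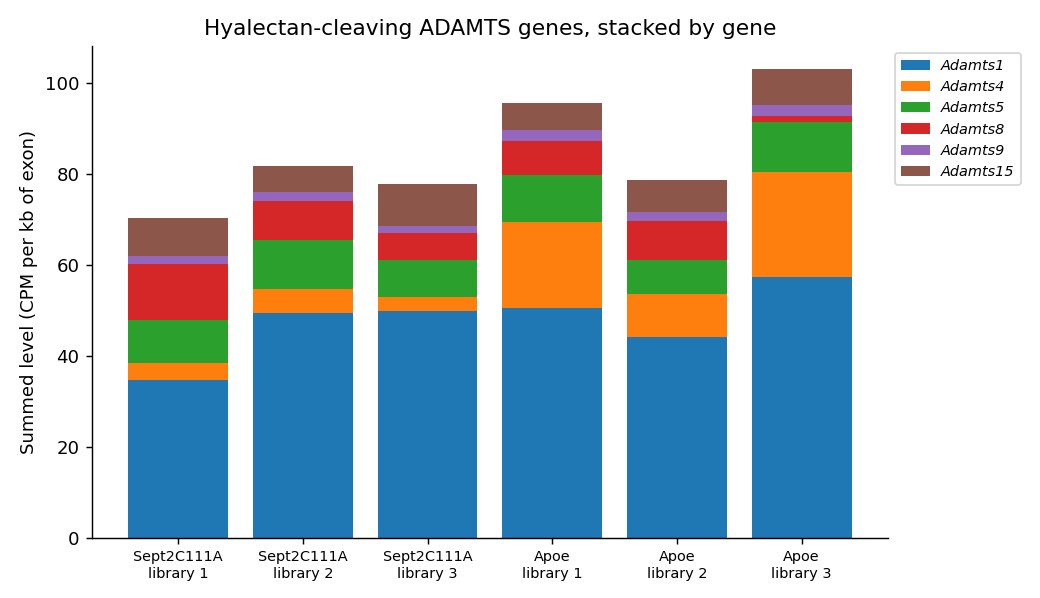
Summed level of the 6 hyalectan-cleaving protease genes in each library, in CPM per kilobase of exon from 0, stacked by gene, with Sept2C111A recipients on the left. Adamts1 is the largest block in every library, and the Adamts4 block is 3.18 to 5.38 CPM per kb in Sept2C111A recipients and 9.54 to 23.0 CPM per kb in Apoe recipients.

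Adamts2, the procollagen N-proteinase, was at 479.7, 691 and 318 CPM in Sept2C111A recipients and at 415, 483 and 488 CPM in Apoe recipients. The Sept2C111A recipients enclosed the Apoe recipients on both sides. The log2 fold change was 0.10 (SE 0.30, edgeR adjusted p = 0.877), and its sign turned to -0.21 without Sept2C111A library 2.

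Adamts12, which cuts cartilage oligomeric matrix protein, was at 28.1, 23.9 and 17.4 CPM in Sept2C111A recipients and at 19.0, 33.4 and 159.9 CPM in Apoe recipients. The first 2 Apoe libraries lay close to the Sept2C111A libraries, and the third was far above all 5 others, at 8.40 times the lowest of its group. With all libraries the log2 fold change was -1.61 (SE 0.78, edgeR adjusted p = 0.366), and without Apoe library 3 it was -0.18. Its substrate gene Comp followed the same library, at 229 to 244 CPM in Sept2C111A recipients and at 92.8, 179 and 687 CPM in Apoe libraries 1, 2 and 3.

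Versican, the hyaluronan-binding proteoglycan of the arterial wall that Adamts1, Adamts4, Adamts5, Adamts9 and Adamts15 can cut, was at 91.0, 178 and 93.3 CPM in Sept2C111A recipients and at 293, 196 and 236 CPM in Apoe recipients. The groups were separate but close, with Sept2C111A library 2 at 178 CPM and Apoe library 2 at 196 CPM. Versican's log2 fold change was -1.001 (SE 0.32, 95% interval -1.76 to -0.24), with an edgeR adjusted p of 0.316 and a DESeq2 adjusted p of 0.0755. DESeq2 called Vcan in 2 of 6 such leave-one-out fits, without Sept2C111A library 2 (adjusted p = 1.14e-05) and without Apoe library 2 (adjusted p = 0.0482). These are the libraries nearest to the other group, so leaving out either one widens the gap by itself. Adventitial fibroblast markers, from cells that also make matrix, were opposite in direction, at 2100 to 2572 CPM in Sept2C111A recipients and 873 to 1462 CPM in Apoe recipients (6 of 6 members above 0 in log2 fold change). Macrophage markers were mixed, with 4 of 6 members below 0 in log2 fold change, as Vcan was, and 2 above. Their sums, given for Adamts4, overlapped between the groups. The part of either cell type was not tested.

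Aggrecan, the aggregating proteoglycan of cartilage that is also found in diseased arteries, was at 74.7, 88.1 and 60.3 CPM in Sept2C111A recipients and at 52.7, 127 and 367 CPM in Apoe recipients. The lowest and the highest of the 6 libraries were both Apoe recipients. For aggrecan the log2 fold change was -1.29 (SE 0.66, edgeR adjusted p = 0.376), and without Apoe library 3 it was -0.27. Per kilobase of exon, the ratio of aggrecan to versican was 1.59, 0.957 and 1.25 in Sept2C111A recipients and 0.349, 1.25 and 3.00 in Apoe recipients. By this measure aggrecan was above versican in some libraries of both groups. The length used for versican, 14.46 kb, is the union of all its exons, including the exon that some splice forms skip. A shorter length would lower these ratios, so those near 1 do not settle which gene was higher. DESeq2 called aggrecan in 1 of 6 leave-one-out fits, without Apoe library 1 (adjusted p = 0.028). That library was the lowest of the Apoe recipients, so leaving it out raises their mean by itself.

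Apoe library 3 therefore carried the highest Acan, Adamts12, Adamts4, Adamts1, Adamts5 and Adamts9 of the 6 libraries and the lowest Adamts8. Cartilage-like markers (Col2a1, Sox9, Col9a1, Matn1 and Comp) summed to 713 CPM there, against 235 to 252 CPM in Sept2C111A recipients and 98.7 and 192 CPM in the other two Apoe recipients. Most of this sum was Comp. Col2a1, which encodes the main collagen of cartilage, was at 5.98 CPM in that library and at 0.279 to 3.73 CPM in the other 5, and Sox9, the transcription factor of cartilage cells, at 15.8 CPM beside 3.50 to 11.1 CPM. Matn1, another cartilage protein, was at 0 in the other 5 libraries and at 0.0989 CPM there. These values were read in a single library, and their part in the member levels was not tested.

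**Figure D4:**
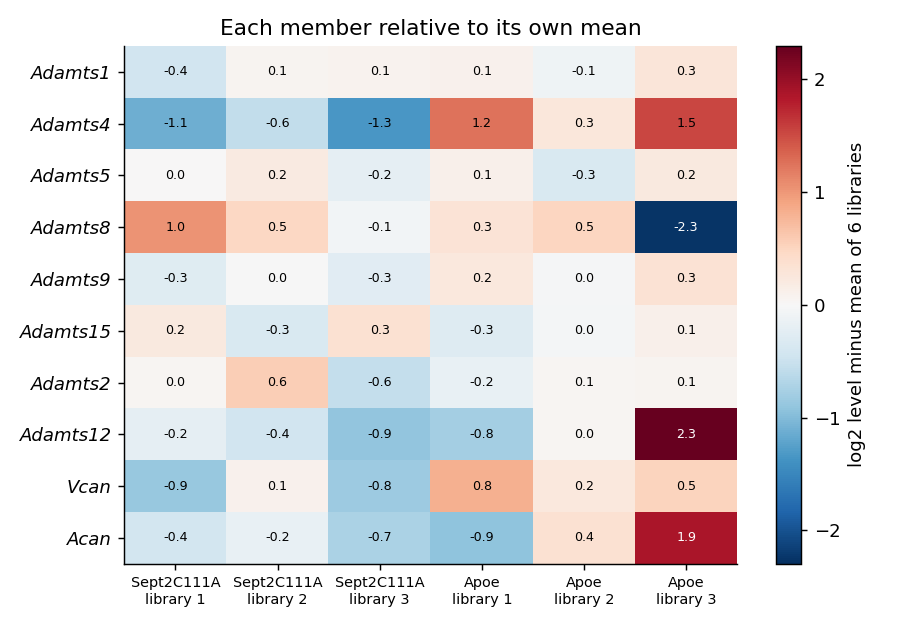
Log2 level of each gene in each library minus the mean of that gene over the 6 libraries, with Sept2C111A recipients in the first 3 columns. Apoe library 3 stands at 2.3 for Adamts12, 1.88 for Acan and -2.25 for Adamts8, while Adamts4 is below 0 in all Sept2C111A recipients and above 0 in all Apoe recipients.

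Per kilobase of exon, the order of levels was similar at the top in both groups. In Sept2C111A recipients Adamts2 (53.2 ± 20.1 CPM per kb) and Adamts1 (44.6 ± 8.57) overlapped with each other and were above all other members. Acan (9.96 ± 1.86), Adamts5 (9.45 ± 1.35), Adamts8 (8.90 ± 3.31), Vcan (8.36 ± 3.44) and Adamts15 (7.77 ± 1.84) followed, each overlapping the next. Adamts4 (4.08 ± 1.15) lay below Adamts15 and above Adamts12 (2.12 ± 0.496), without overlap on either side, and Adamts12 overlapped Adamts9 (1.77 ± 0.184). In Apoe recipients Adamts1 (50.7 ± 6.61) and Adamts2 (49.5 ± 4.37) again had the highest means and overlapped. Acan (24.4 ± 22.0) overlapped Adamts2 above it and Adamts4 (17.2 ± 6.92) below it, Adamts4 overlapped Vcan (16.7 ± 3.36), and Vcan was above Adamts5 (9.53 ± 1.87) without overlap. Further down in that group, Adamts15, Adamts12, Adamts8 and Adamts9 each overlapped the next in rank. Adamts4 thus took place 8 of 10 in Sept2C111A recipients and place 4 of 10 in Apoe recipients.

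The remaining ADAMTS proteases of the mouse gave no call by edgeR or by DESeq2. Of 11 with a row 9 were tested, 6 had a log2 fold change below 0 and 3 above, and their median was -0.27. Adamts10, which acts on fibrillin microfibrils, was at 293 ± 40.5 CPM in Sept2C111A recipients and 195 ± 64.6 CPM in Apoe recipients (log2 fold change 0.59, edgeR adjusted p = 0.351). Adamts6, the closest relative of Adamts10, was at 28.5 ± 5.55 CPM in Sept2C111A recipients and 34.3 ± 8.71 CPM in Apoe recipients. Adamts7, which like Adamts12 cuts cartilage oligomeric matrix protein, was at 5.99, 8.23 and 4.17 CPM in Sept2C111A recipients and at 5.92, 12.5 and 48.0 CPM in Apoe recipients. Its highest library was Apoe library 3, as for Adamts12, and its log2 fold change of -1.85 was -0.58 without that library. Adamts14, the procollagen proteinase related to Adamts2, was at 9.76 ± 2.18 CPM in Sept2C111A recipients and 14.2 ± 5.76 CPM in Apoe recipients. Adamts16, named after its values were seen, was at 0.829 to 1.68 CPM in Sept2C111A recipients and at 0.0558, 2.84 and 37.1 CPM in Apoe recipients.

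The ADAMTS-like genes, which encode relatives without a protease domain, had 7 members tested, 5 above 0 and 2 below (median log2 fold change 0.20), and no call by either test. Thsd4 (also called Adamtsl6), a promoter of microfibril assembly, was at 217 ± 22.2 CPM in Sept2C111A recipients and 125 ± 91.4 CPM in Apoe recipients. Adamtsl5 was at 136 ± 18.1 CPM in Sept2C111A recipients and 90.2 ± 52.5 CPM in Apoe recipients. Adamtsl3 was at 74.9 ± 10.6 CPM in Sept2C111A recipients and 78.1 ± 48.7 CPM in Apoe recipients. Adamtsl2 was at 56.2 ± 60.0 CPM in Sept2C111A recipients and 73.1 ± 54.8 CPM in Apoe recipients. All 4 differences were smaller than the spread within the Apoe recipients, apart from that of Thsd4, which was about equal to it.

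Among 8 genes whose products activate, inhibit or clear these proteases, 5 were below 0 and 3 above (median log2 fold change -0.25). Timp3, the matrix-bound inhibitor of ADAMTS4 and ADAMTS5, was at 1909.5 ± 1002 CPM in Sept2C111A recipients and 1857 ± 652 CPM in Apoe recipients. Lrp1, the endocytic receptor that removes both proteases, was at 1267 ± 216 CPM in Sept2C111A recipients and 1436 ± 176 CPM in Apoe recipients. Fn1, which encodes fibronectin, was at 4858 ± 2210 CPM in Sept2C111A recipients and 6057 ± 2884 CPM in Apoe recipients. Fbln1, a matrix protein that assists ADAMTS1, was at 402 ± 119 CPM in Sept2C111A recipients and 228 ± 16.1 CPM in Apoe recipients, with separate groups (log2 fold change 0.82, edgeR adjusted p = 0.316, DESeq2 adjusted p = 0.0501). The proprotein convertase genes, which encode activators of these proteases, did not share a direction and were named after their values were seen. Furin was at 111.6, 126.6 and 105.0 CPM in Sept2C111A recipients and at 301.0, 132.9 and 198 CPM in Apoe recipients. Its groups did not overlap, and its log2 fold change was -0.88 (SE 0.30), at an adjusted p of 0.316 by edgeR and 0.110 by DESeq2. Pcsk5 was at 84.6 ± 3.27 CPM in Sept2C111A recipients and 108 ± 52.5 CPM in Apoe recipients, with overlap. DESeq2 called 1 of the 8 genes of this list, Pcsk6, beside 3.87% of all genes it tested. Pcsk6, a proprotein convertase known to activate aggrecanases in cartilage, was at 94.9, 88.4 and 119.9 CPM in Sept2C111A recipients and at 34.3, 62.1 and 39.9 CPM in Apoe recipients. Its groups did not overlap, its log2 fold change was 1.15 (SE 0.26), and its DESeq2 adjusted p was 0.00792, with a call in 3 of 6 leave-one-out fits.

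For hyaluronan, the chain that hyalectans bind, 9 of 16 tested genes were below 0 and 7 above (median log2 fold change -0.23). The 4 most abundant passed neither test. Cd44, the hyaluronan receptor of leukocytes and wall cells, was at 110 ± 46.7 CPM in Sept2C111A recipients and 395 ± 405 CPM in Apoe recipients, the largest value, 862 CPM, being that of Apoe library 1. Hyal1, a lysosomal hyaluronidase, was at 75.2 ± 3.63 CPM in Sept2C111A recipients and 43.3 ± 19.1 CPM in Apoe recipients, without overlap. Lyve1 was at 70.4 ± 9.02 CPM in Sept2C111A recipients and 54.3 ± 15.3 CPM in Apoe recipients. Cemip2 was at 45.0 ± 2.94 CPM in Sept2C111A recipients and 57.8 ± 10.9 CPM in Apoe recipients, also without overlap. DESeq2 called 1 of the 17 genes with a row, Has2, named after its values were seen, beside 3.87% of all genes it tested. The share of this list was thus close to that of all genes. Has2, the main hyaluronan synthase of mesenchymal cells, was at 3.84, 7.79 and 3.34 CPM in Sept2C111A recipients and at 18.8, 20.6 and 18.9 CPM in Apoe recipients, so that the groups were wide apart. Its log2 fold change was -1.96 (SE 0.35), with a DESeq2 adjusted p of 0.000121, an edgeR adjusted p of 0.316, and a DESeq2 call in 6 of 6 leave-one-out fits.

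Enzymes that build the chondroitin sulphate chains of versican and aggrecan had 12 of 18 tested genes below 0 and 6 above (median log2 fold change -0.30). The most abundant of them, Ugdh, Chsy1, Chpf2 and Csgalnact2, had log2 fold changes of -0.32, -0.41, -0.57 and 0.18, and their groups overlapped. DESeq2 called 1 of the 19 genes with a row, beside 3.87% of all genes it tested, so the share was close to that of all genes. The called gene was Chst11, a sulphotransferase of the chain, named after its values were seen. Chst11 was at 28.4, 25.1 and 26.4 CPM in Sept2C111A recipients and at 159.4, 46.1 and 80.0 CPM in Apoe recipients. The highest was Apoe library 1, which also had the highest sum of neutrophil markers, and their part in the value was not tested. Its groups were separate, and its log2 fold change was -1.84 (SE 0.44, DESeq2 adjusted p = 0.00481), with a call in 4 of 6 leave-one-out fits.

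Genes of other known ADAMTS substrates had 9 of 13 members below 0 (median log2 fold change -0.78). The procollagen genes Col1a1, Col1a2 and Col3a1 averaged 4479 ± 2197, 6113 ± 1957 and 7461 ± 3413 CPM in Sept2C111A recipients and 11470.0 ± 9500, 11473 ± 8180 and 13306 ± 7538 CPM in Apoe recipients, with the highest Col1a1 (22034 CPM) in Apoe library 3. Biglycan (Bgn), a small proteoglycan, was at 6229 ± 2423 CPM in Sept2C111A recipients and 5978 ± 1541 CPM in Apoe recipients. DESeq2 called 2 of the 13 genes of this list, both named after their values were seen, beside 3.87% of all genes it tested. Tfpi2, a serine protease inhibitor that ADAMTS1 can cut, was at 3.01 ± 1.43 CPM in Sept2C111A recipients and 11.2 ± 2.45 CPM in Apoe recipients (DESeq2 adjusted p = 0.00252). Dcn, which encodes decorin, was higher, at 3369 ± 1013 CPM in Sept2C111A recipients and 1582 ± 231 CPM in Apoe recipients (DESeq2 adjusted p = 0.00693), and adventitial fibroblast markers were higher in the same libraries. None of the lists held a gene that passed edgeR's test.

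**Figure D5:**
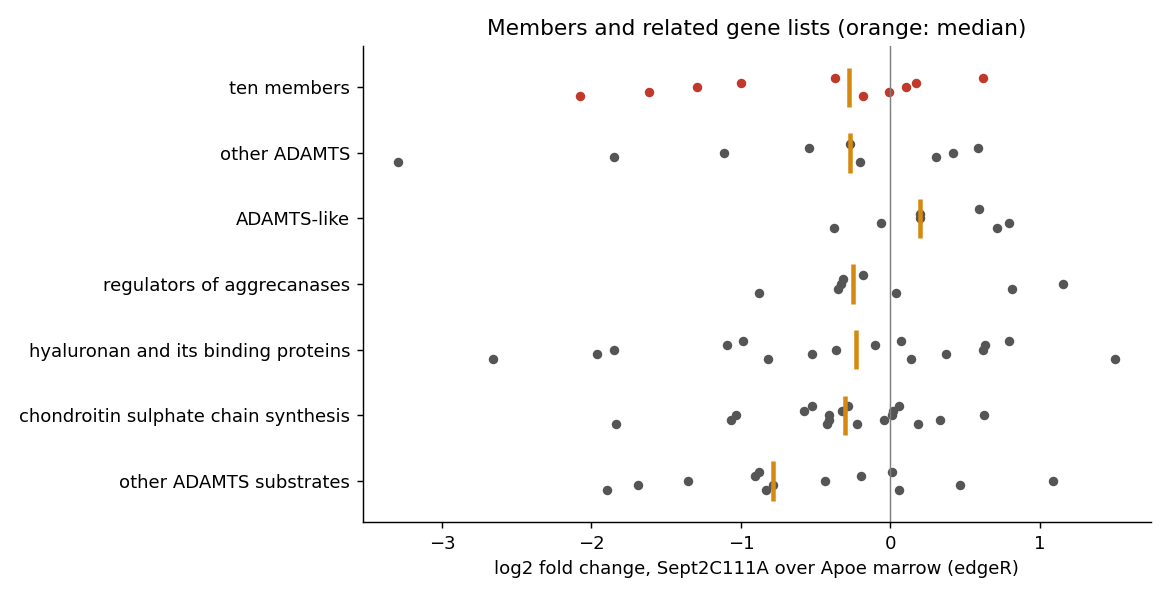
Log2 fold change, Sept2C111A over Apoe recipients, of the 10 members (red) and of the tested genes of 6 related lists (grey), with the median of each list in orange. The medians lie between -0.78 (other ADAMTS substrates) and 0.20 (ADAMTS-like), beside 0.00 over all genes tested.

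Within the 10 genes, the patterns over the 6 libraries fell along those already described. Pearson's r of log2(CPM + 1), given as a description since all values come from the same 6 libraries, was 0.97 between Adamts12 and Acan, 0.97 between Adamts4 and Adamts9, 0.92 between Adamts4 and Vcan, and -0.84 between Adamts8 and Adamts12. Among 13939 other genes with a mean of at least 1 CPM, the 5 most like Adamts4 were Sec61b, Ireb2, Trip12, Kdm5b and Gclm, with r from 0.995 to 0.998. Among the 5 most like Vcan were Tars, Gmppb, Pappa and Slfn9, with r from 0.991 to 0.993. Gclm, a subunit of the enzyme that starts glutathione synthesis, was at 21.5 ± 2.84 CPM in Sept2C111A recipients and 48.6 ± 14.1 CPM in Apoe recipients. Pappa, a metalloproteinase that cuts binding proteins of insulin-like growth factor, was at 6.16 ± 4.09 CPM in Sept2C111A recipients and 15.1 ± 4.90 CPM in Apoe recipients.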

How the data were processed

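Aortic RNA was sequenced in 6 libraries, 3 per group, and the labels do not say how many mice each holds. Each library has 1 deposited file of expected counts, which the authors did not normalise. The tools RSEM 1.3.1, Bowtie2 and DESeq2 1.4.5 and the build mm10 are named in the submitters' processing notes. Neither gene annotation nor strandedness is given in the sources used here. Ambiguous reads are shared out by RSEM according to estimated abundance, so 34.6% to 35.9% of values were fractional. In 1 Sept2C111A file the column heading bears another library number than the deposited sample, and GEO's record of the sample was followed.

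After rounding of the expected counts, edgeR 4.0.16 in R 4.3.3 was applied (filterByExpr with minimum count 10, TMM, two-sided quasi-likelihood F test, group as single factor, Benjamini-Hochberg over 14466 genes). SE and 95% intervals were derived from the F value. DESeq2 1.42.0 and limma-voom (limma 3.58.1) were alternatives, besides size-factor scaling, other count filters, a replicate block and leaving out each library. All tests were tried on simulated data. Exon lengths are the union of GENCODE vM21 exons. Nothing says how the 3 samples of a group were collected beyond the design's 3 per group, so p-values measure the spread between these samples. Replicates of a group differed beyond sampling noise (chi-square per degree of freedom 52.6 to 249). The members and lists were chosen with earlier results of these data known. All members are named, and of each list the 4 genes of highest mean level, besides the 5 genes most correlated with Adamts4 and with Vcan over the 6 libraries. Of the genes this rule takes, 1 is not reported here.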

Additional observations from a re-analysis of the deposited data

How the results depend on the processing

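By edgeR the number of genes called was 0 with TMM, with size-factor scaling, with no count filter, with genes below a mean count of 50 removed and without any single library, and the same held for the members and for the related lists. Beside this 0, 2170 genes had an unadjusted p under 0.05, and limma-voom called 0. With the replicate number as a block the counts were 0 as well. Same-numbered libraries correlated at 0.01, 0.15 and -0.17 in their deviations from the group means, and not every library correlated best with its own number, so the numbers were not taken as pairs; the block left 1489 genes at an unadjusted p under 0.05. DESeq2 called 570 genes, 1 member and 5 list genes. In DESeq2 fits chosen after seeing the data it called 241, 640 and 116 genes without Sept2C111A library 1, 2 or 3, and 330, 1767 and 345 genes without Apoe library 1, 2 or 3. In the same order it called 1, 2, 1, 2, 2 and 1 members and 2, 6, 2, 7, 13 and 4 list genes. The cause of the difference between the tools was not tested. The log2 fold change of Adamts5 was between -0.16 and 0.10 by edgeR without 1 library, and by DESeq2 0.091 without Sept2C111A library 3, 0.0418 without Apoe library 1 and 0.0988 without Apoe library 3. That of Adamts2 ranged from -0.21 to 0.35 by edgeR and was -0.2108 by edgeR and -0.2225 by DESeq2 without Sept2C111A library 2. The other 8 members kept their sign in all 18 alternatives. With 3 libraries per group, differences the size of those of Adamts1, Adamts5, Adamts15 and Adamts2 lie within the spread between libraries.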
